A study of Mus musculus with 6 samples.

Results

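Cytotoxic lymphocytes carry granules that hold perforin and granzymes, and the genes of this machinery were followed here in sorted CD4+ T cells of the mouse spleen, as a measure of effector transcripts, or of transcripts of other cells, within the sort. The genes were taken by symbol from the deposited count files (*Gzma*, *Gzmb*, *Gzmk*, *Gzmm*, *Prf1*, *Nkg7*, *Klrd1*, *Klrk1*, *Ccl5* and *Ctsw*). They made up 10 of the 25239 genes listed, the rule that chose them uses symbols and no measured value, though it was written with earlier results of these data known, and 8 of the 10 passed the filter on low counts and were tested. *Gzmb* and *Gzmk* did not pass it.

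RNA-seq was run on splenic TCRβ+CD4+CD44-CD127+ T cells of C57BL/6 mice, purified by flow sorting, with 2 mice for each of the genotypes *Ikzf3* +/+, *Ikzf3* +/N159S and *Ikzf3* N159S/N159S. *Ikzf3* encodes Aiolos, a zinc finger transcription factor of the Ikaros family, and the N159S allele was knocked in with CRISPR-Cas9, so that every cell type of a mouse carried it and a level in the sorted cells could follow from the allele in other cells too. No agent was given to any group, and neither age nor sex stood in the labels. CD127, encoded by *Il7r*, served in the gate as the marker of naive cells. Each library held 11696461 to 17317260 reads on genes and 14803 to 18147 genes with at least 1 read. *Ikzf3* itself was read in every library (152 to 203 CPM, the count scaled to a library of 1000000 reads on the tested genes after TMM scaling), and gene counts do not show the missense change. Among the markers of the sorted cells, *Cd4* lay between 681 and 994 CPM, *Il7r* between 885 and 1289 CPM and *Cd44* between 15.9 and 43.5 CPM. *Xist*, a transcript of female cells that coats their inactive X, came to 731 and 824 CPM in both heterozygous libraries but only 0.773 to 1.98 CPM in the other 4, so sex and genotype cannot be told apart in any comparison with the heterozygous libraries.

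Cytotoxic T cells and natural killer (NK) cells destroy a target by releasing perforin, which opens the target membrane, and granzymes, which are serine proteases that then enter the cell. Resting naive CD4+ T cells are not cytotoxic, and this programme is best known from NK cells, CD8+ T cells, NKT cells and some memory CD4+ T cells. Ikaros family proteins bind DNA at sites with the core GGGAA.

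RefSeq promoter windows, from 250 bases before to 50 bases after a start site on build GRCm38.p6, were at hand for 7 of the 10 genes (*Gzma*, *Gzmb*, *Gzmk*, *Gzmm*, *Prf1*, *Nkg7* and *Klrk1*) and were searched for GGGAA on both strands, that is also for TTCCC. The letters GGAA within it are also the core of ETS family sites. GGGAA or its complement stood in the windows of *Gzma*, *Gzmk*, *Prf1* and *Nkg7*, and in neither *Gzmb*, *Klrk1* nor the 2 windows of *Gzmm*, while 62.7% of all 32851 promoter windows of this length held it. The windows of *Gzma* and *Nkg7* are shown because these genes had, respectively, the highest and the lowest log2 fold change of the 8 tested genes over the 3 comparisons of genotypes. Both are written 5′ to 3′ on the strand of the gene, with the matches in capitals. The *Gzma* window lies on the minus strand at chr13:113100932-113101231 and its matches start 210 and 197 bases before the start site. The *Nkg7* window lies on the plus strand at chr7:43436888-43437187 and its match starts 18 bases before the start site.
Gzma: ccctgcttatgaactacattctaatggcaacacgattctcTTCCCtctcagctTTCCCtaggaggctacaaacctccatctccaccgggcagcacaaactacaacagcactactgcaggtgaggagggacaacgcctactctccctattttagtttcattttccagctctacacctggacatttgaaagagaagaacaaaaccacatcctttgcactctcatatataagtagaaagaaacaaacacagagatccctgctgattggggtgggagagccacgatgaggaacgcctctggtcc
Nkg7: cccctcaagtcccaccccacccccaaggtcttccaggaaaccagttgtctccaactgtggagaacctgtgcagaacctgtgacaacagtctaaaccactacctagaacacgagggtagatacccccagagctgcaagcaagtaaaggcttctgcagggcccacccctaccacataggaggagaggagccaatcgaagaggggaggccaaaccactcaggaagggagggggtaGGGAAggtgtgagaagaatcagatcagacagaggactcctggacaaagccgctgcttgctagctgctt
A match is a description of these letters only, and no binding was measured.

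Across the 6 libraries the 10 genes together differed little in summed level, while 3 of them supplied nearly all of it. The sum came to 93.7 and 102.5 CPM for +/+, 97.7 and 96.2 CPM for +/N159S, and 94.4 and 96.1 CPM for N159S/N159S, so that the groups overlapped. *Ctsw*, *Prf1* and *Klrd1* held 93.8% (95% Wilson interval 92.2 to 95.1) and 93.5% (92.1 to 94.6) of these reads in the +/+ libraries, 91.1% (89.7 to 92.4) and 89.7% (88.0 to 91.1) in +/N159S, and 94.6% (93.4 to 95.6) and 92.0% (90.4 to 93.3) in N159S/N159S, where the intervals cover counting error only. The lowest of these shares were those of the heterozygous libraries, in which the other 7 genes summed to 8.68 and 9.92 CPM, against 5.84 and 6.66 CPM in +/+ and 5.12 and 7.69 CPM in N159S/N159S. Without *Ctsw*, the most-read gene, the sum was 49.4 and 57.4 CPM in +/+ and 48.3 and 46.7 CPM in +/N159S. In N159S/N159S it was then 42.8 and 42.3 CPM, and the genotypes did not overlap.

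**Figure D1:**
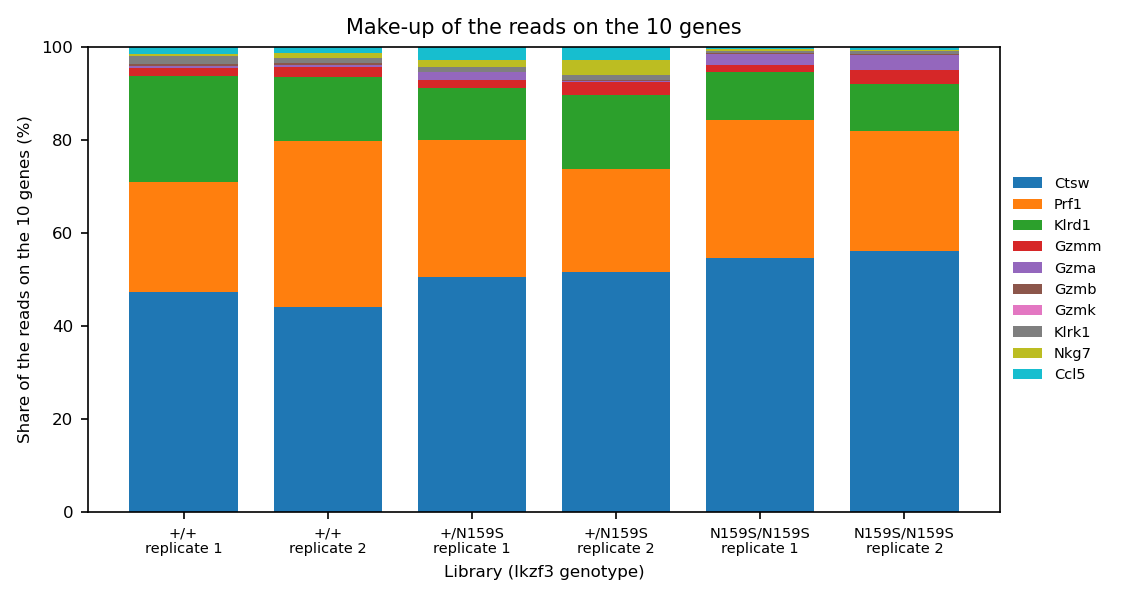
Stacked bars give each gene's share, in percent, of the reads that fell on the 10 genes in each of the 6 libraries. *Ctsw*, *Prf1* and *Klrd1* fill 89.7% to 94.6% of every bar, and the *Ctsw* band runs from 44.0% in *Ikzf3* +/+ replicate 2 to 56.0% in *Ikzf3* N159S/N159S replicate 2.

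Levels between genes were compared per length, as mean CPM per kilobase of exon over the 6 libraries. The order was *Ctsw* (39.4), *Klrd1* (15.1), *Prf1* (10.9), *Ccl5* (2.88), *Gzmm* (1.65), *Gzma* (1.51), *Nkg7* (1.29), *Klrk1* (0.276), *Gzmb* (0.156) and *Gzmk* (0.0213). *Ctsw* stood above *Klrd1* and *Prf1* in every library. The place of *Ccl5* came from +/+ and +/N159S, since in N159S/N159S its values (0.656 and 1.24) lay below those of *Gzma* (2.58 and 3.50) and overlapped those of *Gzmm* (1.18 and 2.28). In the N159S/N159S libraries *Klrd1* (10.9 in each) lay between the *Prf1* values (10.04 and 11.3), and the neighbours *Gzmm*, *Gzma* and *Nkg7* crossed each other from library to library.

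Of the 8 genes tested, none passed the threshold of an adjusted p under 0.05 between N159S/N159S and +/+ or between +/N159S and +/+, and 1, *Ccl5*, passed it between N159S/N159S and +/N159S, where it was lower (edgeR's quasi-likelihood F test, p adjusted over 12117 genes after Benjamini and Hochberg, as for every adjusted p here). Over all tested genes, 3.1% were called higher and 2.1% lower in N159S/N159S than in +/+, 1.16% higher and 0.586% lower in +/N159S than in +/+, and 0.553% higher and 0.933% lower in N159S/N159S than in +/N159S. At an unadjusted p under 0.05, 4 of the 8 genes (*Gzma*, *Klrd1*, *Ccl5* and *Ctsw*) stood apart between N159S/N159S and +/+, where 18.4% of all genes did. The corresponding counts were 2 (*Nkg7* and *Ccl5*) beside 16.3% of all genes for +/N159S against +/+, and 3 (*Gzma*, *Nkg7* and *Ccl5*) beside 11.7% for N159S/N159S against +/N159S. DESeq2 called 2 of them (*Gzma* and *Klrd1*), 0 and 2 (*Nkg7* and *Ccl5*) in the same order of comparisons. The comparisons share libraries and are therefore not independent of each other.

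The median log2 fold change of the 8 genes was −0.51 for N159S/N159S minus +/+, 0.17 for +/N159S minus +/+ and −0.23 for N159S/N159S minus +/N159S, beside medians of 0.00018, 0.011 and −0.0077 over all genes tested. Between N159S/N159S and +/+, both libraries lay above both in 2 genes and below both in 3, and 24.3% and 23.9% of all genes did the same. For +/N159S against +/+ the counts were 3 above (25% of all genes) and 1 below (22.1%), and for N159S/N159S against +/N159S they were 2 above (19.5%) and 4 below (21.6%).

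**Figure D2:**
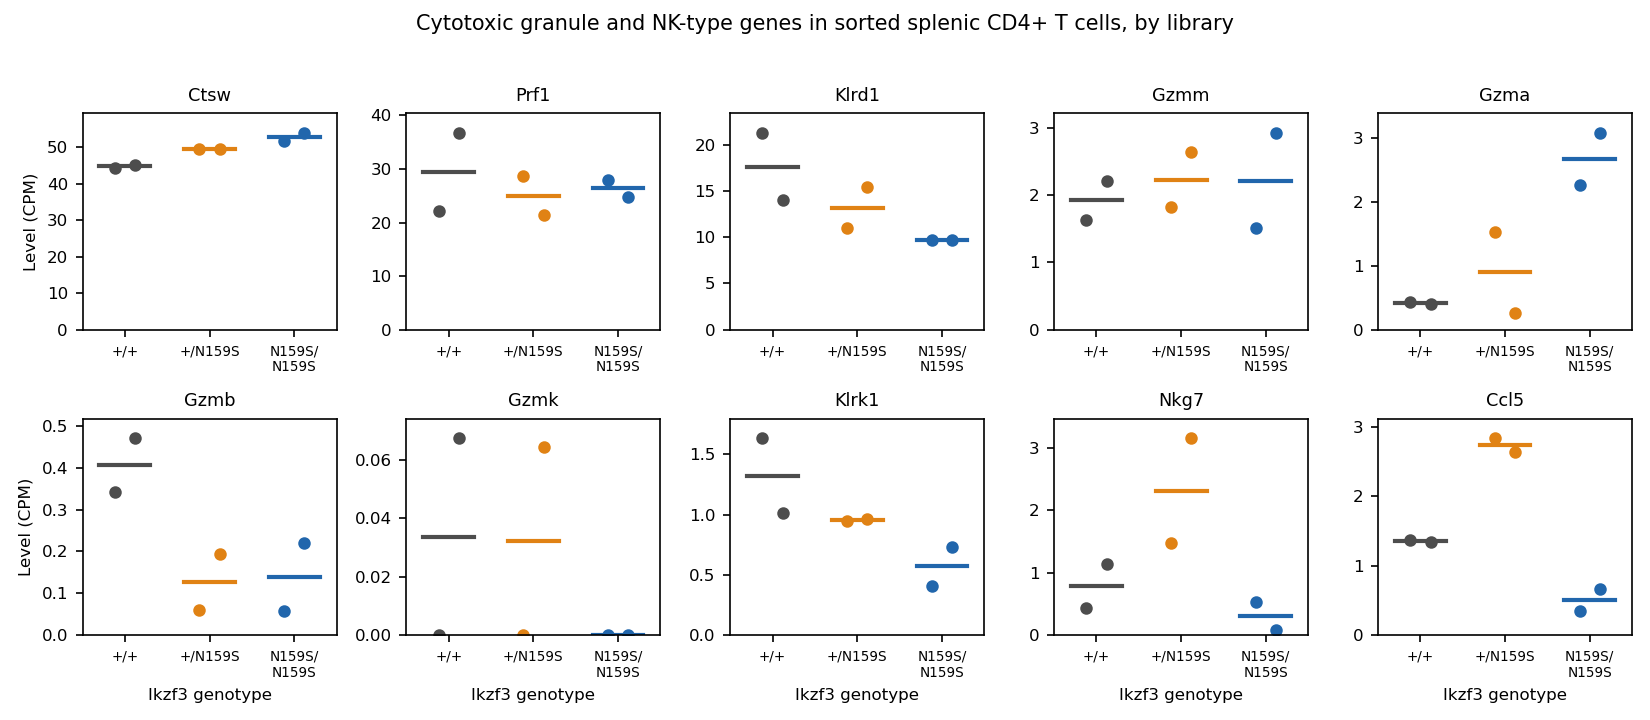
Each panel plots the level of 1 gene in CPM on a linear axis from 0, with a point for each of the 6 libraries and a line at the mean of each *Ikzf3* genotype (n = 2). *Ccl5* is highest in both +/N159S libraries (2.83 and 2.64 CPM), *Gzma* in both N159S/N159S libraries (2.27 and 3.08 CPM), and *Gzmk* never exceeds 0.0673 CPM.

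The pore former of the granule is perforin, encoded by *Prf1* on chromosome 10 (61297833 to 61304680, plus strand, mm10). It was read 259 and 546 times in +/+, 485 and 332 times in +/N159S, and 481 and 339 times in N159S/N159S, or 22.2 and 36.7, 28.6 and 21.4, and 28.0 and 24.8 CPM. The +/+ libraries held both the highest value and one of the lowest, and the genotypes overlapped. The log2 fold change was −0.17 ± 0.21 (SE) for N159S/N159S minus +/+ (adjusted p = 0.754), −0.25 ± 0.21 for +/N159S minus +/+ (adjusted p = 0.615) and 0.08 ± 0.21 for N159S/N159S minus +/N159S (adjusted p = 0.926).

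Among the granzymes, *Gzma* (chromosome 13, 113093825 to 113100981, minus strand), which encodes a protease that cuts after basic residues, had the highest fold change. It was read 5 and 6 times in +/+, 26 and 4 times in +/N159S, and 39 and 42 times in N159S/N159S. In CPM these were 0.429 and 0.404, 1.53 and 0.258, and 2.27 and 3.08. Both homozygous libraries stood above the other 4, and the heterozygous pair was split, with replicate 1 above and replicate 2 below the +/+ libraries. At least 10 reads were held only by +/N159S replicate 1 and the N159S/N159S libraries. *Gzma* therefore passed the filter on low counts through the libraries where it was high. The fitted level was 6.3-fold higher in N159S/N159S than in +/+ (log2 fold change 2.66 ± 0.71, SE), which missed the threshold at an adjusted p of 0.0555. Against +/N159S the log2 fold change was 1.54 ± 0.61 (adjusted p = 0.334), and +/N159S minus +/+ gave 1.115 ± 0.78 (adjusted p = 0.516). With 1 library left out these ran from 0.79 to 3.33 and from −0.67 to 1.87.

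The call on *Gzma* between N159S/N159S and +/+ depended on the model and on the libraries kept. Over the 16 other settings that kept the gene, its adjusted p for N159S/N159S against +/+ ran from 1.56e-05 to 0.253 and was under 0.05 in 8. It passed, for example, in DESeq2 (adjusted p = 0.0220). By edgeR's quasi-likelihood test it also passed with either heterozygous library left out, but those libraries are not in this comparison. It did not pass by that test when any library of N159S/N159S or +/+ was left out. Its log2 fold change stayed between 2.43 and 2.86 whichever library was left out.

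*Gzmm* (chromosome 10, 79689020 to 79695261, plus strand), whose protease prefers to cut after methionine or leucine, was read 19 to 41 times in each library. Its levels were 1.63 and 2.22 CPM in +/+, 1.83 and 2.64 CPM in +/N159S, and 1.51 and 2.93 CPM in N159S/N159S, and the genotypes overlapped. The log2 fold changes lay between −0.02 and 0.20, each with an SE of 0.42 to 0.44 (adjusted p = 0.864 to 0.988).

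*Gzmb* (chromosome 14, 56258838 to 56262260, minus strand) encodes the granzyme that cuts after aspartate and activates caspases, and *Gzmk* (chromosome 13, 113171608 to 113225908, minus strand) encodes a trypsin-like granzyme known from memory T cells. *Gzmb* was read 4 and 7 times in +/+, 1 and 3 times in +/N159S, and 1 and 3 times in N159S/N159S. *Gzmk* was read 0 and 1 times, 0 and 1 times, and 0 and 0 times. With 3 reads as the limit that a count of 0 allows, a library could hold up to 0.173 to 0.256 CPM of an unread gene, so no difference in *Gzmk* was detectable at this depth. *Gzmb* was at 0.344 and 0.471 CPM in +/+ and at 0.0582 to 0.220 CPM in the other 4 libraries, which did not overlap, but its counts were too low for the test. *Gzmk* overlaps *Esm1* on the opposite strand without a shared exon base.

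Cathepsin W, encoded by *Ctsw* (chromosome 19, 5465043 to 5468507, minus strand), is a cysteine protease of CD8+ T cells and NK cells, and its gene was the most abundant of the 10. It was read 516 and 670 times in +/+, 837 and 769 times in +/N159S, and 886 and 735 times in N159S/N159S, or 44.3 and 45.1, 49.4 and 49.5, and 51.6 and 53.8 CPM. The genotypes did not overlap and followed the order +/+, +/N159S, N159S/N159S, with differences that were small beside those of *Gzma* or *Ccl5*. The log2 fold change for N159S/N159S minus +/+ was 0.24 ± 0.10 (1.18-fold, adjusted p = 0.240), and those for +/N159S minus +/+ and N159S/N159S minus +/N159S were 0.15 and 0.09 (adjusted p = 0.516 and 0.800). *Ctsw* shares 9 exon bases with *Fibp* on the opposite strand, and the strand setting of the counting was not given in the sources used here, so a few of its reads may belong to that gene.

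*Nkg7* (chromosome 7, 43437073 to 43438249, plus strand) encodes a membrane protein of cytotoxic granules that is needed for their release. It was read 5 and 17 times in +/+, 25 and 49 times in +/N159S, and 9 and 1 times in N159S/N159S, or 0.429 and 1.14, 1.48 and 3.16, and 0.524 and 0.0733 CPM. Both heterozygous libraries stood above the other 4, and the homozygous libraries overlapped the +/+ libraries. At least 10 reads were held only by +/+ replicate 2 and the +/N159S libraries. *Nkg7* therefore passed the filter on low counts largely through the libraries where it was high. The log2 fold change was −2.83 ± 0.74 for N159S/N159S minus +/N159S (7.1-fold lower), which missed the threshold (adjusted p = 0.102), 1.497 ± 0.66 for +/N159S minus +/+ (adjusted p = 0.292) and −1.33 ± 0.84 for N159S/N159S minus +/+ (adjusted p = 0.452). For N159S/N159S against +/N159S the adjusted p ran from 0.000100 to 0.426 over 16 other settings and was under 0.05 in 5, DESeq2 among them (adjusted p = 0.0463). With 1 library left out the log2 fold changes of *Nkg7* ran from −4.82 to −2.10, from 0.86 to 2.40 and from −3.33 to −0.43 in the same order of comparisons.

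Both receptor genes of the set had their lowest levels in N159S/N159S. *Klrd1* (chromosome 6, 129591782 to 129598775, plus strand) encodes CD94, which pairs with NKG2 proteins to bind the non-classical MHC molecule Qa-1. It was read 248 and 208 times in +/+, 186 and 239 times in +/N159S, and 167 and 133 times in N159S/N159S, or 21.3 and 14.0, 10.98 and 15.4, and 9.72 and 9.74 CPM. Both homozygous libraries were below the other 4, and the heterozygous libraries overlapped the +/+ libraries. The fitted level was 1.8-fold lower in N159S/N159S than in +/+ (log2 fold change −0.85 ± 0.22), which missed the threshold at an adjusted p of 0.0522. The other log2 fold changes were −0.41 ± 0.22 for +/N159S minus +/+ (adjusted p = 0.385) and −0.44 ± 0.22 for N159S/N159S minus +/N159S (adjusted p = 0.502).

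As with *Gzma*, the call on *Klrd1* depended on the model and on the libraries kept. Its adjusted p for N159S/N159S against +/+ ran from 0.000215 to 0.344 over 17 other settings and was under 0.05 in 9, among them DESeq2 (adjusted p = 0.0244) and edgeR's quasi-likelihood test without either heterozygous library (0.0313 and 0.0270) or without +/+ replicate 2 (0.0309). The heterozygous libraries are not in this comparison. Without +/+ replicate 1, or without either N159S/N159S library, *Klrd1* did not pass by the quasi-likelihood test. The log2 fold change was between −1.13 and −0.52 whichever library was left out.

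*Klrk1* (chromosome 6, 129610323 to 129623864, minus strand) encodes NKG2D, an activating receptor for stress-induced ligands. Its levels were 1.63 and 1.01 CPM in +/+ (19 and 15 reads), 0.944 and 0.966 CPM in +/N159S (16 and 15 reads), and 0.407 and 0.733 CPM in N159S/N159S (7 and 10 reads). The genotypes did not overlap. The log2 fold change for N159S/N159S minus +/+ was −1.21 ± 0.57 (adjusted p = 0.287), and those for +/N159S minus +/+ and N159S/N159S minus +/N159S were −0.45 ± 0.53 and −0.76 ± 0.57 (adjusted p = 0.726 and 0.672).

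*Ccl5* (chromosome 11, 83525778 to 83530518, minus strand), the chemokine of the set, is made by NK cells and memory T cells and attracts other leukocytes. It was read 16 and 20 times in +/+, 48 and 41 times in +/N159S, and 6 and 9 times in N159S/N159S, or 1.37 and 1.35, 2.83 and 2.64, and 0.349 and 0.659 CPM. The means were 1.36 ± 0.0202 CPM in +/+, 2.74 ± 0.136 CPM in +/N159S and 0.504 ± 0.219 CPM in N159S/N159S (SD, n = 2), and the genotypes did not overlap. *Ccl5* was 5.5-fold lower in N159S/N159S than in +/N159S (log2 fold change −2.46 ± 0.48, adjusted p = 0.0281). The differences from +/+ pointed in opposite directions, a log2 fold change of 1.01 ± 0.42 in +/N159S (adjusted p = 0.272) and of −1.45 ± 0.51 in N159S/N159S (adjusted p = 0.151), and neither passed the threshold.

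The *Ccl5* call between the mutant genotypes did not hold without any 1 of the 4 libraries compared. The adjusted p was 0.106 without +/N159S replicate 1, 0.0819 without +/N159S replicate 2, 0.183 without N159S/N159S replicate 1 and 0.0874 without N159S/N159S replicate 2. It ran from 1.54e-05 to 0.183 over 16 other settings and was under 0.05 in 11, while the log2 fold change stayed between −2.93 and −2.04 whichever library was left out.

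**Figure D3:**
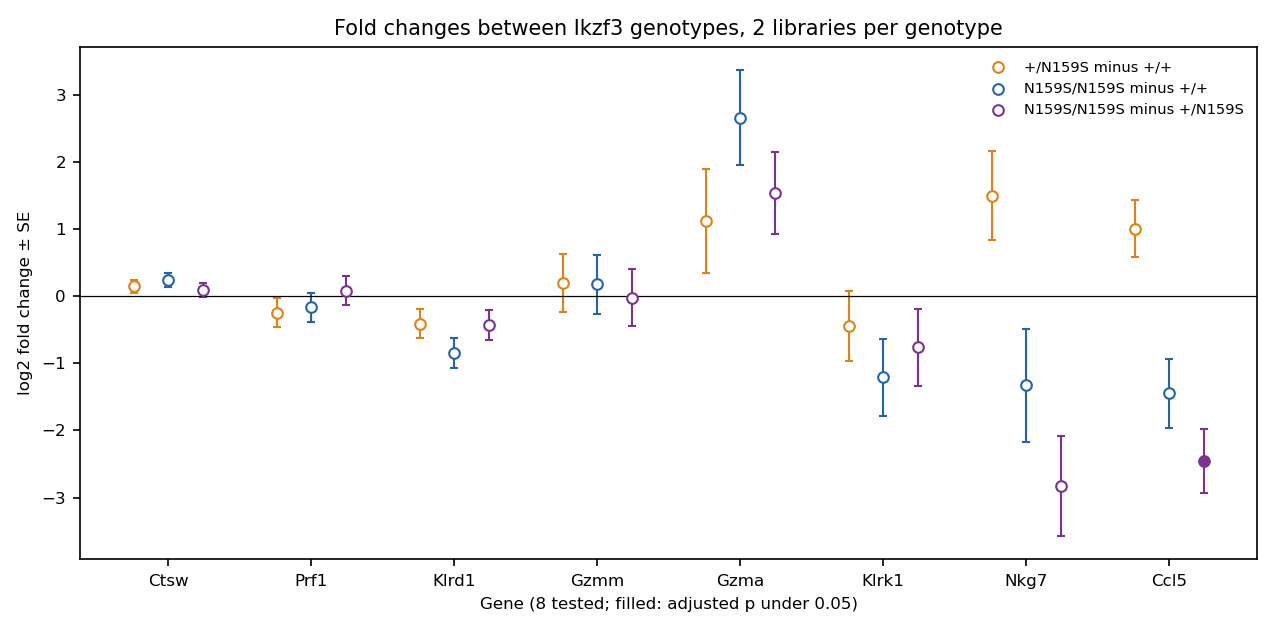
Points give the log2 fold change of each of the 8 tested genes in the 3 comparisons of *Ikzf3* genotypes (vertical axis, bars ± SE), and a filled point marks an adjusted p under 0.05. The only filled point is *Ccl5* for N159S/N159S minus +/N159S (−2.46). *Gzma* lies above 0 and *Klrd1* and *Klrk1* below 0 in all 3 comparisons, and *Nkg7* and *Ccl5* lie above 0 in +/N159S and below 0 in N159S/N159S when set against +/+.

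Genes whose pattern over the 6 libraries was most like that of the 3 most abundant members were read as a description. By Pearson's r of log2 CPM over 6 libraries, the nearest of 12116 other tested genes were *Dnpep*, *Tpbgl* and *Zcchc24* for *Ctsw* (r = 0.997, 0.997 and 0.994), *Itga10*, *Kctd11* and *Aen* for *Prf1* (r = 0.988, 0.986 and 0.982), and *Phtf1*, *0610039H22Rik* and *Wdr36* for *Klrd1* (r = 0.991, 0.990 and 0.988). None of these 9 genes is among the 10 or in the wider lists described next, and with 6 points and this many genes such values of r are to be read only as a ranking.

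The wider cytotoxic pathway was taken from lists of 79 genes in all, chosen with earlier results of these data known, of which 77 were in the files and 46 were tested. In N159S/N159S against +/+, 4 of the 46 were called higher and 2 lower, in +/N159S against +/+ 3 higher and 2 lower, and in N159S/N159S against +/N159S 0 higher and 3 lower. Over all genes the shares called higher and lower were 3.1% and 2.1%, 1.16% and 0.586%, and 0.553% and 0.933%. The median log2 fold changes of the 46 genes were 0.03, 0.09 and 0.04, beside 0.00018, 0.011 and −0.0077 over all genes. Calls on single genes of these lists, and of the cell type markers below, were read only in edgeR's quasi-likelihood fit of all libraries. Those close to the threshold, such as *Serpinb9*, *Rab27a*, *Lyst*, *Klrg1* and *Ahnak*, were not checked under the other settings.

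Of the granule proteins and their inhibitors, 8 of 13 were tested. *Serpinb9*, an inhibitor of granzyme B that protects cytotoxic cells from their own granules, was at 12.02 and 10.4 CPM in +/+ and at 17.2 and 17.3 CPM in N159S/N159S and rose (log2 fold change 0.63 ± 0.16, adjusted p = 0.0469). *Serpinb6b*, of the same inhibitor clade, rose from 7.21 and 7.67 CPM to 14.1 and 11.6 CPM (0.79 ± 0.18, adjusted p = 0.0287). *Srgn*, the proteoglycan that packs granzymes into granules, was at 187 to 207 CPM in all 6 libraries, and *Ctsc*, the protease that activates granzyme precursors, at 71.9 to 102 CPM, and neither passed the threshold in any comparison.

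All 9 genes of granule exocytosis were tested. *Rab27a*, a small GTPase that docks granules at the membrane, was at 123 and 86.5 CPM in +/+ and at 60.3 and 65.0 CPM in +/N159S and fell there (log2 fold change −0.74 ± 0.16, adjusted p = 0.0488). *Lyst*, which controls granule size, fell from 175 and 210 CPM to 139 and 131 CPM (−0.51 ± 0.11, adjusted p = 0.0498). In N159S/N159S they were at 71.2 and 90.8 CPM and at 153 and 134 CPM, and neither passed the threshold against +/+.

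Of the NK receptors and adaptors, 13 of 32 listed genes were tested. *Il2rb*, the β chain shared by the receptors for IL-2 and IL-15, was at 24.2 and 33.4 CPM in +/+, 30.6 and 30.3 CPM in +/N159S, and 10.4 and 9.67 CPM in N159S/N159S. It was lower in N159S/N159S than in +/+ (log2 fold change −1.52 ± 0.17, adjusted p = 0.000396) and than in +/N159S (−1.60 ± 0.17, adjusted p = 0.000826). *Il18r1*, a chain of the IL-18 receptor, was higher in N159S/N159S (0.89 ± 0.11, adjusted p = 0.000741) and in +/N159S (0.64 ± 0.11, adjusted p = 0.0178) than in +/+. *Klrg1*, an inhibitory receptor of effector T cells and NK cells, was at 2.24 and 2.19 CPM in +/N159S and at 0.291 to 0.515 CPM in the other 4 libraries, higher than in +/+ (2.38 ± 0.53, adjusted p = 0.0491) and lower in N159S/N159S than in +/N159S (−2.89 ± 0.54, adjusted p = 0.0249). Its reads were 38 and 34 in +/N159S and 4 to 6 in each other library. *Klrg1* therefore passed the filter on low counts only through the libraries where it was high.

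Regulators and secreted effectors made up the rest of the lists. Of 12 tested regulators, *Bhlhe40*, a transcription factor of activated T cells, was higher in N159S/N159S than in +/+ (1.19 ± 0.30, adjusted p = 0.0441) and *Ikzf2*, which encodes Helios, was higher in +/N159S than in +/+ (0.83 ± 0.15, adjusted p = 0.0232). *Tbx21*, which encodes T-bet, was at 1.77 and 1.87 CPM in +/N159S and at 0.471 to 0.698 CPM in the other 4 libraries, and its adjusted p was 0.144 against +/+. Of 4 tested cytokines and death ligands, *Tnf* fell from 32.9 and 30.1 CPM in +/+ to 11.3 and 11.4 CPM in N159S/N159S (−1.47 ± 0.13, adjusted p = 0.000118), and it was also lower there than in +/N159S (−1.04 ± 0.13, adjusted p = 0.00337). *Ifng* was read 0 to 13 times in a library and was not tested.

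Markers of cell types that use these genes were read in the same libraries, and in such bulk samples fewer cells of a type and less RNA per cell cannot be told apart. Of the 4 defining NK cell markers, *Klra8* had no read in any library, *Ncr1* had 0 to 8 reads, *Klre1* had 1 to 4 and *Klrb1c* had 1 to 23. Their summed level was 0.773 and 0.605 CPM in +/+, 0.649 and 2.25 CPM in +/N159S, and 0.116 and 0.293 CPM in N159S/N159S. The highest value was that of +/N159S replicate 2, which was also the library with the most *Nkg7* and with less *Gzma* than either +/+ library. *Tyrobp*, an adaptor gene among the other NK markers, went the other way in N159S/N159S. It was at 0.601 and 0.807 CPM in +/+, 1.89 and 1.29 CPM in +/N159S, and 1.51 and 1.98 CPM in N159S/N159S. Its log2 fold change for N159S/N159S minus +/+ was 1.28 ± 0.50 (adjusted p = 0.197). *Fcer1g* overlapped between the genotypes. All 10 NK markers, of which *Gzma*, *Prf1*, *Klrd1* and *Nkg7* are themselves under study, were in the files, 6 were tested and none was called in any comparison by edgeR's quasi-likelihood test, while 3, 2 and 2 had an unadjusted p under 0.05 in N159S/N159S against +/+, +/N159S against +/+ and N159S/N159S against +/N159S, beside 18.4%, 16.3% and 11.7% of all genes. DESeq2 was run on all 12117 tested genes, but its calls by gene were read only for the genes under study, as given above, and not for the other markers.

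Of the CD8+ T cell markers, *Cd8a* and *Cd8b1* were present at low level and lowest in N159S/N159S. The third, *Eomes*, was at 2.40 and 5.11 CPM in +/+, 3.19 and 3.28 CPM in +/N159S, and 3.37 and 1.90 CPM in N159S/N159S. Its N159S/N159S values overlapped those of both other genotypes, and it was not called. *Cd8b1* was at 20.1 and 13.2 CPM in +/+, 12.4 and 8.76 CPM in +/N159S, and 3.14 and 2.05 CPM in N159S/N159S, lower in the last than in +/+ (log2 fold change −2.65 ± 0.29, adjusted p = 0.000379) and than in +/N159S (−2.00 ± 0.29, adjusted p = 0.00707). *Cd8a* was at 1.80 and 4.64 CPM in +/+, 4.66 and 4.64 CPM in +/N159S, and 1.22 and 1.03 CPM in N159S/N159S. It was lower in N159S/N159S than in +/N159S (−2.03 ± 0.44, adjusted p = 0.0467). Within +/+ the replicate with more *Cd8b1* had less *Cd8a*. *Zbtb16*, the defining transcription factor of NKT cells, was at 1.37 and 2.35 CPM, 1.48 and 2.45 CPM, and 0.407 and 0.952 CPM in the same order of genotypes, and was not called (adjusted p = 0.179 for N159S/N159S against +/+ and 0.271 against +/N159S). Of the 4 listed γδ T cell markers, *Trdc* and *Tcrg-C1* were not among the genes counted. The others, *Sox13* and *Il23r*, together had 1 to 12 reads in a library.

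Of 11 effector and memory T cell markers, all of them tested, 3 were called higher and 1 lower in N159S/N159S than in +/+, 2 higher in +/N159S than in +/+, and 4 lower in N159S/N159S than in +/N159S, where 3.1%, 2.1%, 1.16% and 0.933% of all genes were called in those directions. *Cxcr3*, a chemokine receptor of type 1 effector cells, was at 5.78 and 4.06 CPM in +/N159S and at 0.756 to 1.28 CPM in the other 4 libraries (2.18 ± 0.39 for +/N159S minus +/+, adjusted p = 0.0220, and −2.59 ± 0.40 for N159S/N159S minus +/N159S, adjusted p = 0.0107). *Maf* was likewise higher in +/N159S than in +/+ (1.37 ± 0.19, adjusted p = 0.00677), and *S100a4* was lower in N159S/N159S than in +/N159S (−2.49 ± 0.49, adjusted p = 0.0317), as were *Maf* and *Il2rb*. *Lgals1*, *Ahnak* and *Anxa2* were higher in N159S/N159S than in +/+ (0.81, 0.63 and 1.37 on the log2 scale, adjusted p = 0.00898, 0.0498 and 0.00900). *Foxp3*, which defines regulatory T cells, was at 30.2 and 16.7 CPM in +/N159S and at 5.71 to 11.2 CPM in the other 4 libraries (adjusted p = 0.0690 against +/+).

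B cell markers also followed the heterozygous libraries. The summed level of *Cd79a*, *Cd79b* and *Ms4a1* was 36.8 and 49.3 CPM in +/+, 74.0 and 106.9 CPM in +/N159S, and 31.4 and 20.1 CPM in N159S/N159S, and these genes, *Cd74* and *Ebf1* were called lower in N159S/N159S than in +/N159S. Against +/+, *Cd79b* and *Cd74* were higher in +/N159S (adjusted p = 0.0289 and 0.00970) and *Cd79a* and *Ms4a1* were lower in N159S/N159S (adjusted p = 0.0271 and 0.00713). Of the markers of the sort, *Il7r* was lower in +/N159S than in +/+ (−0.49 ± 0.10, adjusted p = 0.0327) and *Thy1* was lower in N159S/N159S than in +/+ (−1.22 ± 0.12, adjusted p = 0.000143) and than in +/N159S (−0.79 ± 0.11, adjusted p = 0.00697). Of the naive markers, *Lef1* was lower in N159S/N159S than in +/+ (−0.60 ± 0.15, adjusted p = 0.0412). *Il2ra*, of the regulatory T cell list, was lower in N159S/N159S than in +/+ and than in +/N159S (adjusted p = 0.0460 and 0.00697). Of the myeloid and plasmacytoid dendritic cell lists, *S100a9* was higher in N159S/N159S than in +/N159S (adjusted p = 0.0380), *Ly6d* was lower in N159S/N159S than in +/+ and than in +/N159S (adjusted p = 0.0267 and 0.0421) and *Tcf4* was higher in N159S/N159S than in +/+ (adjusted p = 0.0142). The libraries with the most *Ccl5* and *Nkg7* were also those with the most *Klrg1*, *Cxcr3* and B cell transcripts. The other effector and memory markers were divided. *Cd44*, *S100a4*, *S100a6*, *Maf* and *Il2rb* also had their highest mean in +/N159S. *Lgals1*, *Ahnak*, *Anxa1* and *Anxa2* had it in N159S/N159S, and *Cxcr6* in +/+. The part of any of these cell types, or of sex, in the levels of *Ccl5*, *Nkg7*, *Gzma* or *Klrd1* was not tested.

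**Figure D4:**
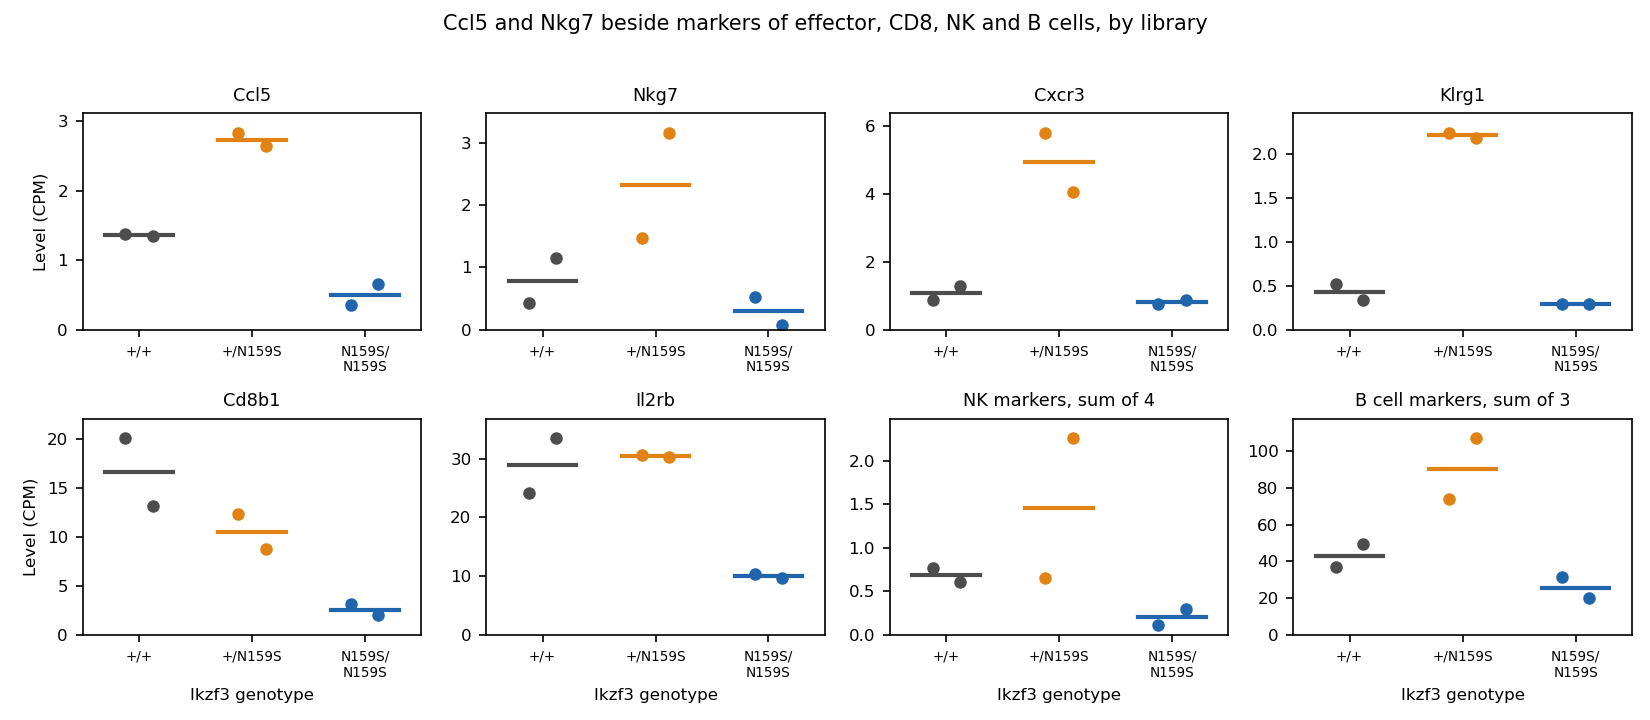
Each panel plots CPM on a linear axis from 0, with a point per library and a line at the mean of each *Ikzf3* genotype (n = 2), for *Ccl5*, *Nkg7*, the effector marker *Cxcr3*, *Klrg1* of the NK receptor list, the CD8 gene *Cd8b1*, *Il2rb*, the sum of the NK markers *Ncr1*, *Klrb1c*, *Klra8* and *Klre1*, and the sum of the B cell markers *Cd79a*, *Cd79b* and *Ms4a1*. *Ccl5*, *Nkg7*, *Cxcr3*, *Klrg1* and the B cell sum are highest in both +/N159S libraries, and *Cd8b1* and *Il2rb* are lowest in both N159S/N159S libraries (2.05 to 3.14 and 9.67 to 10.4 CPM).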

How the data were processed

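The 6 libraries of poly(A)-selected RNA from sorted splenic T cells came from 2 mice for each *Ikzf3* genotype, and p-values rest on the spread between these few mice. Per the labels and the study's methods, the authors trimmed reads with Trimmomatic 0.38.1, aligned them to mm10 with HISAT2 2.2.1 and counted reads per gene with HTSeq 2.0.2. The deposited values are raw counts per gene, and 50.7% to 57.7% of the counted reads lay on genes, the rest in rows that name no gene, which were left out. Those 10 genes and the wider lists were chosen with earlier results of these data known, and all 10 are named throughout. Of a wider list, genes past the threshold, defining markers and *Ikzf3*, *Cd4*, *Cd44* and *Il7r* are named. To these *Srgn*, *Ctsc*, *Tbx21*, *Ifng*, *Xist*, *Eomes*, *Tyrobp*, *Fcer1g*, *S100a6*, *Anxa1* and *Cxcr6* were added after their values were seen.

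Genes were kept by edgeR's filterByExpr (12117 of 25239, a minimum count of 10 and a total of 15), scaled by TMM and fitted across all 6 libraries with edgeR 4.0.16 (R 4.3.3, quasi-likelihood test, 1 coefficient per genotype, no covariate), adjusted after Benjamini and Hochberg with a threshold of 0.05. The SE is the size of the log2 fold change divided by the square root of F. A prior count of 2 entered the log2 CPM used for pattern likeness and for the deviations of same-numbered libraries, not the fitted fold changes. The script was tested on simulated data. Other settings were other scalings and filters, DESeq2 1.42.0, edgeR's likelihood ratio and exact tests, a fit of 2 genotypes, a replicate block, a term for the libraries with more genes detected (+/+ replicate 1, +/N159S replicate 2 and N159S/N159S replicate 2), and each library left out. A read was worth 0.0577 to 0.0855 CPM before TMM scaling. Positions come from GENCODE vM21 (GRCm38, the mm10 assembly) and promoters from RefSeq. Replicates of a genotype differed by more than sampling noise. Some listed marker genes are not reported here.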

Additional observations from a re-analysis of the deposited data

How the results depend on the processing

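Each genotype had 2 libraries and most of the members had low counts. Members called between N159S/N159S and +/+ numbered 0 as reported and 2 (*Gzma* and *Klrd1*) with no filter on low counts, DESeq2, the likelihood ratio test, the exact test, the fit of the 2 genotypes only, and the term for more genes detected, and 0 to 2 with 1 library left out. Between N159S/N159S and +/N159S, 1 became 3 with no filter, 2 with DESeq2, the likelihood ratio test, the exact test and the term for more genes detected, 0 with at least 10 reads in every library (a filter that removes *Ccl5*) and 0 to 1 with 1 library left out. Between +/N159S and +/+ the count was 0 in all settings run, those with 1 library left out included. The cause of the other changes was not tested.

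With the replicate block the counts were 0, 0 and 0 in N159S/N159S against +/+, +/N159S against +/+ and N159S/N159S against +/N159S (*Ccl5* log2 fold change −2.46, adjusted p = 0.0519). Deviations of same-numbered libraries correlated at −0.167 (+/+ and +/N159S), −0.216 (+/+ and N159S/N159S) and 0.238 (+/N159S and N159S/N159S), so the numbers were not taken to pair the samples.

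The mean summed level was 53.4, 47.5 and 42.5 CPM in +/+, +/N159S and N159S/N159S without *Ctsw*, and 98.7 CPM in +/N159S with total counts only. With 1 library left out, log2 fold changes crossed 0 for *Gzmm* (−0.35 to 0.59, −0.084 to 0.45 and −0.54 to 0.39), *Prf1* (−0.47 to 0.25, −0.55 to 0.17 and −0.11 to 0.31) and, in +/N159S against +/+, *Gzma* (−0.67 to 1.87). With no library left out, 233 fold changes of the members under other settings kept their direction and side of the threshold, 18 newly passed it and 1 no longer did. A library left alone in its genotype was assumed to vary like the other genotypes. Over all genes, calls numbered 631, 212 and 180 as reported, and 1047, 710 and 553 with no filter, 1042, 640 and 473 with the likelihood ratio test, 1059, 551 and 457 with the exact test, and 1760, 1385 and 834 with the term for more genes detected. DESeq2 called 327 between +/N159S and +/+, and with 1 library left out the counts ran from 236 to 701, 74 to 244 and 44 to 186.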

Other observations

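Granzyme genes outside the 10 had at most 11 reads in a library. *Gzmc* was read 10 and 11 times in *Ikzf3* +/+, 7 and 8 times in +/N159S, and 2 and 2 times in N159S/N159S (log2 fold change for N159S/N159S minus +/+ −2.54 ± 0.77, adjusted p = 0.0933 by edgeR's quasi-likelihood test). In +/+ *Gzmc* stood at 0.859 and 0.740 CPM, above *Gzma* (0.429 and 0.404 CPM). *Gzmc* passed the filter on low counts through the +/+ libraries, where it was highest. Its order over the genotypes was that of *Klrd1* and *Klrk1* and opposite to that of *Gzma*. *Gzme* and *Gzmn* had no read, *Gzmf* had 1 read in 1 library, and *Gzmd* and *Gzmg* had at most 3 reads in a library.

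*Klrc1*, which encodes the NKG2A partner of CD94, was read 13 times in +/N159S replicate 2 and at most 1 time in any other library, while *Klrd1*, which encodes CD94, was read 133 to 248 times. *Fasl*, the ligand of the death receptor Fas, was at 8.32 to 13.5 CPM in all 6 libraries and was not called in any comparison. *Crtam*, a receptor of CD4+ T cells with cytotoxic features, was at 9.36 and 10.97 CPM in +/+ and at 5.41 to 6.79 CPM in the other 4 libraries (log2 fold change for N159S/N159S minus +/+ −0.75 ± 0.20, adjusted p = 0.0590). These genes were named after their values were seen.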
